A study of Mus musculus with 10 samples.

Results

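The genes described here are 34 genes of the cell cycle and of DNA replication, chosen by name from the 55952 genes of a deposited expression table. They cover Mki67 and the mitotic kinases, the cyclins, the kinases of the G1 phase, the loading of the replicative helicase, the supply of nucleotides and the transcription factor E2f1. All 34 names matched 1 row each. Their RNA was measured by bulk RNA sequencing in kidneys of C57BL/6 mice, a common inbred strain. The control group was kept at 400 m (5 libraries) and the hypoxia group at 4200 m (5 libraries), each for 30 days. No other allele or agent is named in the labels, nor the age or sex of the animals. Because each altitude was its own site, altitude and site cannot be told apart. Nothing in the labels says that every library came from a mouse of its own, so the p-values speak only of the spread among the libraries. Hypoxia libraries 4 and 5 held RNA of other tissues, as described further on, and the comparison was therefore made between control libraries 1 to 5 and hypoxia libraries 1 to 3, with libraries 4 and 5 shown apart.

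A dividing cell passes from G1, in which D cyclins with Cdk4 and Cdk6 inactivate the retinoblastoma proteins and free E2F factors, to S phase, in which licensed origins fire and DNA is copied. A and B cyclins with Cdk1 then drive mitosis, and the spindle checkpoint holds chromosome separation until every kinetochore is attached. In the adult kidney most tubule cells rest outside the cycle, and RNA of the mitotic genes is scarce until an injury recruits cells into division.

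Levels are given in FPKM, fragments relative to gene length and library size, a scale on which genes can be compared per length. Between 16561672 and 17845464 reads were assigned to genes in each library. The protocols in the labels name the retina as the tissue taken, whereas every sample is labelled kidney. The 10 proximal tubule markers summed to 26657 to 32628 FPKM in the controls and to 26204, 23075 and 12135 FPKM in hypoxia 1 to 3, all under every control. Most of that sum was Kap, a protein of the kidney's proximal tubule, and of the 10 markers 1 was called higher and 2 lower. The part of this difference in the results was not tested. In bulk RNA, fewer cells of a type and less RNA per cell cannot be told apart.

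Promoter sequences are shown because many genes of mitosis and of S phase share short elements at their start sites, and the levels in hypoxia 5, given further on, differed by role. In textbook terms, E2F factors bind near S phase genes, and the CHR element with CCAAT boxes marks genes of G2 and mitosis. In the table of RefSeq promoters used here (GRCm38.p6), 28 of the 34 genes were matched, with 30 windows of 250 bases upstream of the start. Ccnd1, Ccnd2, Ccne2, Ccna2, Aurkb and Mcm4 were not matched in that table. The letters searched on both strands were TTTCCCGC, TTTGGCGC, TTTCGCGC and TTTGCCGC for E2F, TTTGAA for the CHR and CCAAT for the CCAAT box. E2F letters may overlap one another on opposite strands. E2F letters were in 6 of the 30 windows (20%) and in 1.86% of all 32851 windows of that length. CCAAT was in 21 (70.0%, against 33.8%), TTTGAA in 6 (20%, against 16.0%), and both of the latter in 6 (20%, against 5.55%). By role, CCAAT was in 8 and TTTGAA in 4 of the 9 windows of mitotic genes, and E2F letters were in 4 of the 8 windows of licensing genes. The stretches printed are the 150 bases upstream of the RefSeq start, 5′ to 3′ on the gene's strand, with these letters in capitals on either strand. Cdk1 (chr10:69352913-69353062, minus strand) and Mki67 (chr7:135716380-135716529, minus strand) stand for mitosis, Mcm6 (chr1:128359706-128359855, minus strand) for licensing, and Cdk4 (chr10:127063385-127063534, plus strand) for the G1 genes that stayed near the other libraries in hypoxia 5.
Cdk1: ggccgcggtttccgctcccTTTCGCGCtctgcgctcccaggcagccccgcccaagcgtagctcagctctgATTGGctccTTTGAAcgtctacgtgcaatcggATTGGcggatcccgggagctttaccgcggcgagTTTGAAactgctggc
Mki67: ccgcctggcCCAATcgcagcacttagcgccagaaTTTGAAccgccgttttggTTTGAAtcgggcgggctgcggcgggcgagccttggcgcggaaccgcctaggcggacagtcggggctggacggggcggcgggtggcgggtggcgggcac
Mcm6: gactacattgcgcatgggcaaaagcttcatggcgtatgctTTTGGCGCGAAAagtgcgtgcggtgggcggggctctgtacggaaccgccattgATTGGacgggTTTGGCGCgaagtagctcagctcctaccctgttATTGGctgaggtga
Cdk4: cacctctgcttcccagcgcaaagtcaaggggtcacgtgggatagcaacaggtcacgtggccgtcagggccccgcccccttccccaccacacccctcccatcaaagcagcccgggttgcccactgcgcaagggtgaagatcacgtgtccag

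In the 8 libraries most of the 34 genes stood at low levels with no difference past the test, and 1 rose. Ccnd1, which encodes cyclin D1, was 1.68 times as high in hypoxia 1 to 3 as in the controls. A gene was tested when its mean over the 8 libraries reached 0.5 FPKM, which 26 of the 34 genes did. With limma on log2(FPKM + 0.5) and Benjamini-Hochberg adjustment over all 14724 genes tested, 1 of the 26 passed an adjusted p of 0.05 upward, or 3.85%, where 4.53% of all tested genes did. None of the 26 passed downward, where 7.75% of all tested genes did, and 7 of the 26 (26.9%) had an unadjusted p under 0.05, against 28.4% of all tested genes. The shares of upward calls and of unadjusted p lay near the background. The other test, limma voom on the recovered reads, tested all 34 genes and called 3 higher (8.82%) and 0 lower, where it called 5.24% of its 21221 genes higher and 4.36% lower. An unadjusted p under 0.05 was reached by 11 of the 34 (32.4%), against 24.3% of all genes in that fit. Fold changes were positive for 21 of the 26 genes (80.8%, against 49.9% of all tested genes), with a median log2 change of 0.17 where the median over all tested genes was -0.00046. The split of calls over all genes moved with the scaling. It was 667 higher and 1141 lower as deposited, 1100 higher and 790 lower after rescaling to the sum without the 50 most abundant genes, and 1113 higher and 925 lower with voom.

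**Figure D1:**
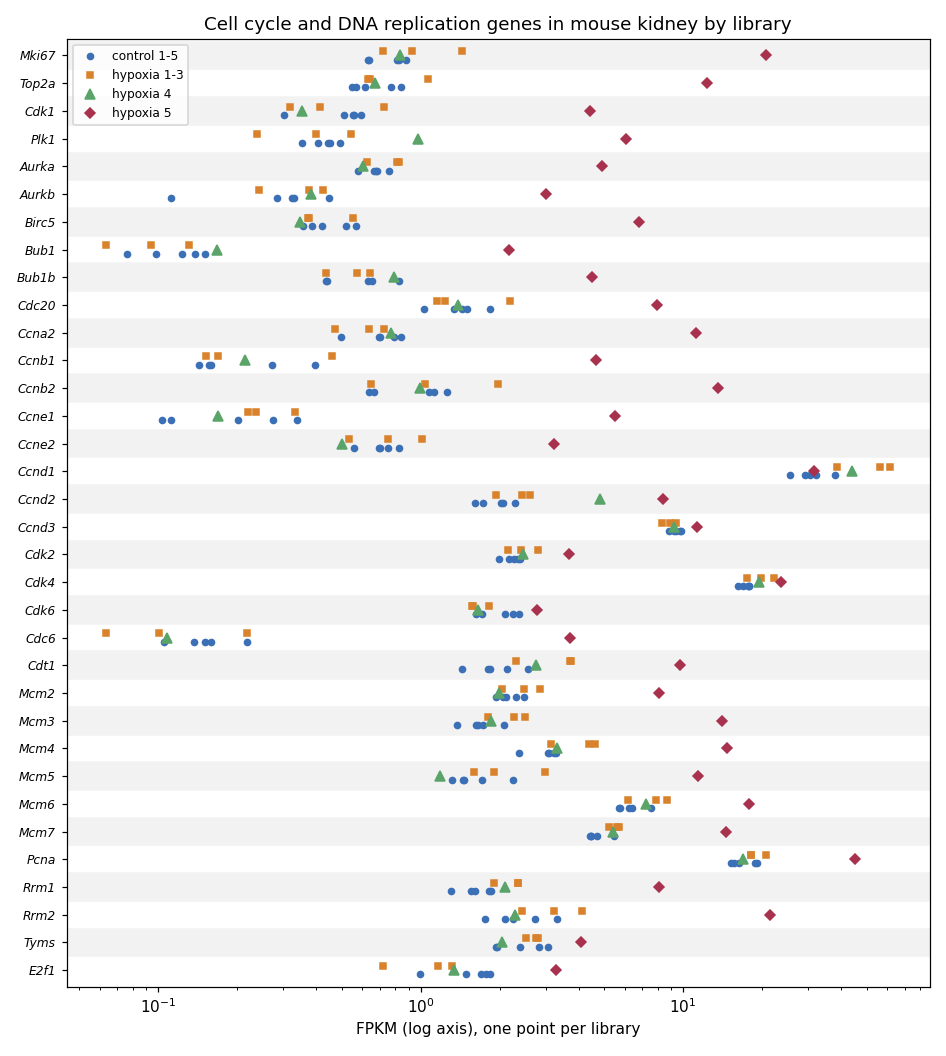
FPKM of the 34 genes (rows, grouped by role) on a log axis, with 1 point for each of the 10 libraries and a marker for each of control 1 to 5, hypoxia 1 to 3, hypoxia 4 and hypoxia 5. Hypoxia 5 is the highest of the 10 libraries in 33 of the 34 genes (share over all genes not counted), whereas hypoxia 4 stays near the other libraries in most of them.

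Ccnd1 carries growth signals to Cdk4 and Cdk6 and was the most abundant of the 34 genes. Its gene lies on the minus strand of chromosome 7 at 144929931 to 144939925 (GRCm38, identifier ENSMUSG00000070348). Control libraries 1 to 5 held 30.5, 29.2, 32.2, 38.0 and 25.5 FPKM, and hypoxia libraries 1 to 3 held 56.4, 38.5 and 61.6 FPKM. The groups did not overlap, but the lowest hypoxia library lay only just above the highest control. The means were 31.1 ± 4.61 FPKM (SD, n = 5) and 52.2 ± 12.1 FPKM (SD, n = 3), with a log2 change of 0.72 (SE 0.166, limma adjusted p = 0.0260). With 1 library fewer the log2 change stayed between 0.59 and 0.93, but the call was lost in 4 cases. It was 0.65 without hypoxia 1 (adjusted p = 0.0993), 0.59 without hypoxia 3 (0.0960), 0.72 without control 1 (0.0591) and 0.70 without control 2 (0.0568). The gene shares 1771 bases with LTO1 on the opposite strand, which was at a mean of 2.33 FPKM in the 8 libraries.

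The other D cyclins and the G1 kinases did not pass the test. Ccnd2 (cyclin D2) lay between 1.61 and 2.28 FPKM in the controls and between 1.93 and 2.61 FPKM in hypoxia 1 to 3. Ccnd3 (cyclin D3) spanned 8.87 to 9.82 FPKM and 8.30 to 9.42 FPKM, a log2 change of -0.08 (adjusted p = 0.454). Their ranges overlapped. Cdk4, the main partner of the D cyclins, was at 17.9, 16.2, 17.8, 17.7 and 16.9 FPKM in the controls and at 17.5, 22.3 and 19.8 FPKM in hypoxia 1 to 3. Its log2 change of 0.19 (SE 0.0801) had an unadjusted p of 0.0436 and a limma adjusted p of 0.162. Hypoxia 2 and 3 were above every control, and hypoxia 1 was among them. Cdk4 shares 641 bases with Tspan31 on the other strand, a gene of similar level (24.0 FPKM), so their reads may not be separable where the counting ignored strand. Cdk6, the second D cyclin kinase, changed by -0.21 on the log2 scale (adjusted p = 0.295), and Cdk2, the partner of E and A cyclins, by 0.11 (adjusted p = 0.527).

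Before S phase, Cdc6 and Cdt1 load the ring of Mcm2 to Mcm7, the replicative helicase, on origins. All 7 tested genes of this group of 8 had a positive fold change, as 49.9% of all tested genes did, with a median of 0.29 on the log2 scale. In all 7 hypoxia 1 was the highest of the 8 libraries, as it was in 14.6% of all tested genes. That count was made after the values were seen. By limma 0 passed the adjusted threshold, and 4 (57.1%) had an unadjusted p under 0.05, against 28.4% of all tested genes. With voom, 1 of these genes passed, Cdt1. The largest change was that of Cdt1, which held 1.81, 2.56, 1.84, 1.44 and 2.13 FPKM in the controls and 3.74, 2.31 and 3.70 FPKM in hypoxia 1 to 3. Hypoxia 1 and 3 were above every control and hypoxia 2 was not. The means were 1.95 ± 0.418 FPKM (SD, n = 5) and 3.25 ± 0.812 FPKM (SD, n = 3), and the log2 change was 0.60 (SE 0.179, limma adjusted p = 0.0590). That p fell to 0.0214 with voom, 0.0378 after rescaling without the 50 most abundant genes and 0.0250 without hypoxia 2, and it ranged up to 0.195 when other libraries were left out.

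Mcm4 was at 2.38, 3.29, 3.09, 3.22 and 3.05 FPKM in the controls and at 4.61, 3.14 and 4.39 FPKM in hypoxia 1 to 3. As for Cdt1, hypoxia 2 was within the controls, and the log2 change of 0.37 (SE 0.134) had a limma adjusted p of 0.109. Mcm7 held 4.45, 5.46, 4.68, 4.40 and 4.45 FPKM in the controls and 5.70, 5.6 and 5.22 FPKM in hypoxia 1 to 3. Hypoxia 1 and 2 lay above every control and hypoxia 3 above all but control 2, with a log2 change of 0.21 (SE 0.0821, adjusted p = 0.125). Mcm3 changed by 0.29 on the log2 scale with an unadjusted p of 0.0496 and an adjusted p of 0.175. The other helicase subunits lay further from the threshold, Mcm6 at an adjusted p of 0.223, Mcm5 at 0.343 and Mcm2 at 0.477. Cdc6 was too low to test, with 0.105 to 0.219 FPKM in the controls and 0.218, 0.0632 and 0.10 FPKM in hypoxia 1 to 3, which rested on 6 to 20 reads per library. Mcm7 shares its locus with Mir106b, Mir93 and Mir25 and overlaps Cops6 and Ap4m1 on the other strand.

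None of the 5 genes of the replication clamp, of nucleotide supply and of E2F passed the limma threshold, and 1 had an unadjusted p under 0.05. Rrm1, the large subunit of ribonucleotide reductase, held 1.61, 1.83, 1.31, 1.55 and 1.85 FPKM in the controls and 2.35, 1.90 and 2.36 FPKM in hypoxia 1 to 3. The groups did not overlap, but the log2 change of 0.35 (SE 0.119) had a limma adjusted p of 0.0907, which was 0.0235 with voom. Ccnd1 and Rrm1 were the 2 of 26 tested genes (7.69%) with every hypoxia library above every control, where 9.73% of all tested genes had that order. None of the 26 had every hypoxia library below every control, where 11.8% of all tested genes did.

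Pcna, the sliding clamp of the DNA polymerases, held 15.3, 19.1, 15.6, 16.3 and 18.8 FPKM in the controls and 20.8, 18.1 and 18.2 FPKM in hypoxia 1 to 3. The ranges overlapped and the log2 change was 0.16 (adjusted p = 0.303). A processed copy, Pcna-ps2, stood at a mean of 0.689 FPKM. Rrm2, the S phase subunit of ribonucleotide reductase, changed by 0.36 (adjusted p = 0.250), and Tyms, which makes thymidylate, by 0.14 (adjusted p = 0.561). E2f1, an activator of replication genes, had the most negative change of the 26 genes. Its controls were at 1.5, 1.78, 1.70, 0.994 and 1.83 FPKM and its hypoxia libraries 1 to 3 at 1.32, 1.17 and 0.721 FPKM, of which hypoxia 3 lay under every control and the other two under all but control 4. The log2 change of -0.39 (SE 0.186) had an unadjusted p of 0.0627 and a limma adjusted p of 0.202.

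**Figure D2:**
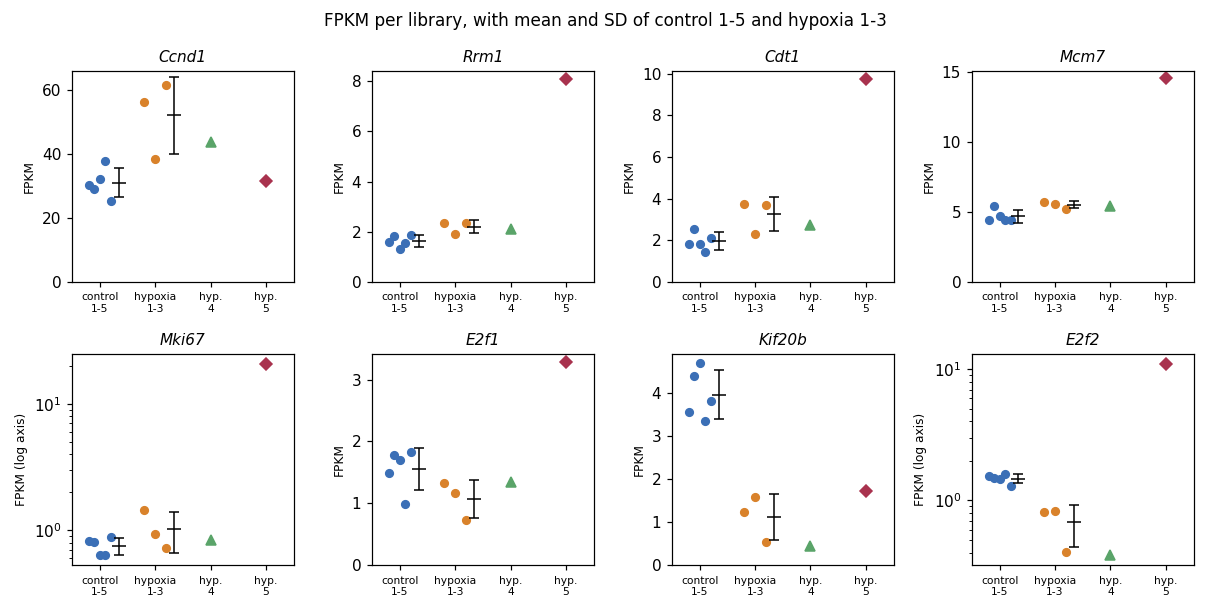
FPKM per library (points; linear axes, log axes for Mki67 and E2f2) with mean and SD (bars) of control 1 to 5 and of hypoxia 1 to 3, for Ccnd1, Rrm1, Cdt1, Mcm7, Mki67, E2f1, Kif20b and E2f2, hypoxia 4 and 5 being marked apart. Ccnd1 and Rrm1 in hypoxia 1 to 3 lie above the controls and Kif20b and E2f2 under them, and hypoxia 5 stands far above all others in Mki67 and E2f2 but not in Ccnd1 or Kif20b.

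The A, B and E cyclins drive S phase and mitosis and were scarce. Ccna2 (cyclin A2) lay between 0.499 and 0.846 FPKM in the controls and held 0.727, 0.634 and 0.471 FPKM in hypoxia 1 to 3, a log2 change of -0.12 (adjusted p = 0.660). Ccnb2 (cyclin B2) spanned 0.637 to 1.26 FPKM in the controls and held 1.98, 1.04 and 0.648 FPKM in hypoxia 1 to 3 (log2 change 0.20, adjusted p = 0.665). Both sets of ranges overlapped. Ccne2 (cyclin E2) changed by 0.06 (adjusted p = 0.846). Ccnb1 (cyclin B1) and Ccne1 (cyclin E1) fell under the level needed for a test, at 0.144 to 0.395 and 0.103 to 0.339 FPKM in the controls. A transcribed copy of the B2 gene, Ccnb2-ps, stood at 1.18 FPKM, and Ccne2 shares 5622 bases with Ints8 on the other strand.

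Mki67, the gene of the proliferation antigen Ki-67, held 0.831, 0.811, 0.633, 0.634 and 0.879 FPKM in the controls. In hypoxia 1 to 3 it held 1.44, 0.930 and 0.719 FPKM, so that 2 of the 3 libraries lay above the controls and the other within them. The log2 change was 0.26 (SE 0.171, limma adjusted p = 0.354). Top2a, which untangles DNA before mitosis, changed by 0.12 (adjusted p = 0.683), Aurka, a kinase of the spindle poles, by 0.10 (adjusted p = 0.675), Cdc20, the activator of the anaphase-promoting complex, by 0.05 (adjusted p = 0.887), and Bub1b, of the spindle checkpoint, by -0.06 (adjusted p = 0.861).

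The 5 remaining mitotic genes were under the level tested. Cdk1, the kinase of mitotic entry, was at 0.557, 0.593, 0.555, 0.301 and 0.512 FPKM in the controls and at 0.728, 0.413 and 0.319 FPKM in hypoxia 1 to 3. Plk1, a kinase of spindle assembly, was at 0.352 to 0.493 FPKM and at 0.239 to 0.545 FPKM, on 9 to 21 reads per library. Values of the groups overlapped for both. Aurkb, the kinase of the chromosomal passenger complex, spanned 0.112 to 0.449 FPKM in the controls and Birc5 (survivin), its partner, 0.356 to 0.566 FPKM. Bub1, a checkpoint kinase, had the lowest mean of the 34 genes, at 0.0632 to 0.150 FPKM on 5 to 11 reads per library over the 8 libraries. These low genes have no adjusted p here.

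**Figure D3:**
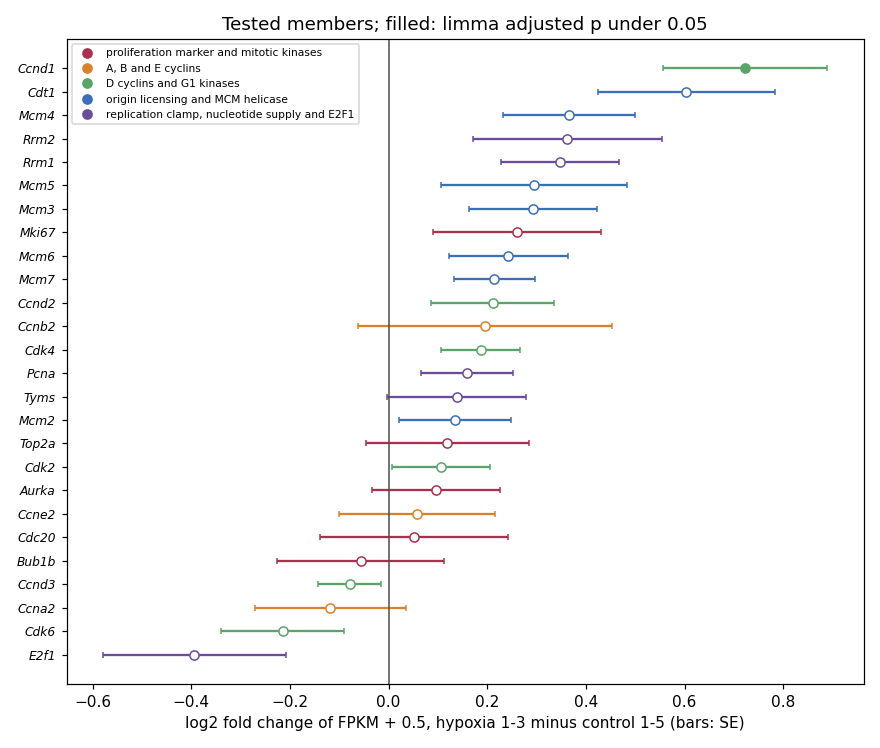
Log2 fold change of hypoxia 1 to 3 against the controls (points, on log2(FPKM + 0.5)) with its standard error (bars) for the 26 genes tested, ordered by size and coloured by role. Ccnd1, the filled point at 0.72, is the 1 gene past the adjusted threshold, and all 7 helicase loading genes lie to the right of 0.

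One library recurred among the high values. Hypoxia 1 was the highest of the 8 libraries in 18 of the 34 genes, and in 15 of the 26 tested ones (57.7%), where it was the highest in 14.6% of all tested genes. This count was made after the values were seen. Leaving out hypoxia 1 lowered the median log2 change of the genes tested from 0.17 to 0.090. Markers of some blood cells were also higher or mostly higher in hypoxia 1 to 3 by their sums. Of those sums only that of B cells was highest in hypoxia 1. The summed level of 10 B cell markers was 2.77 to 3.28 FPKM in hypoxia 1 to 3 against 1.61 to 2.36 FPKM in the controls. That of 9 neutrophil markers was 3.68 to 36.3 against 0.534 to 2.95 FPKM. For 11 T and NK cell markers it was 4.38 to 5.53 against 2.0 to 4.45 FPKM, with hypoxia 1 under control 2. Of the tested markers in these lists, 0 of 1, 1 of 3 and 0 of 4 were called higher. Sums of macrophage markers were 45.3 to 64.0 against 49.0 to 64.5 FPKM. Those of erythroid markers were 129.5 to 545 against 255 to 642.6 FPKM, and both overlapped the controls. Plasma cell markers were mostly lower by their sums, at 43.9 to 53.9 against 53.5 to 74.3 FPKM. Of the 5 plasma cell markers tested 1 was called higher and 0 lower, and 4 had a negative log2 change. Elane and Mpo, which mark neutrophil precursors, were at 0 in all 8 libraries, as was the erythroid factor Gata1. The part of these cells in the differences was not tested.

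Other genes of the same processes showed a few changes. Of 52 further DNA replication genes, 37 were tested, and by limma 4 rose (10.8%, against 4.53% of all tested genes) and 0 fell. An unadjusted p under 0.05 was reached by 9 (24.3%, against 28.4% of all tested genes), and the median log2 change was 0.12. Prim1, the primase that starts each DNA strand, spanned 1.44 to 1.68 FPKM in the controls and rose to 2.76, 2.60 and 2.53 FPKM in hypoxia 1 to 3 (log2 change 0.59, SE 0.0900, adjusted p = 0.00531). Rpa2, of the complex that coats single-stranded DNA, spanned 2.25 to 2.77 FPKM in the controls and rose to 3.81, 3.72 and 3.39 FPKM (log2 change 0.47, adjusted p = 0.0113). Neither gene's groups overlapped. Of the 37 genes tested, 8 (21.6%) had hypoxia 1 to 3 all above every control, against 9.73% of all tested genes.

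Tipin, which protects stalled forks, spanned 3.24 to 4.20 FPKM in the controls and rose to 5.83, 5.07 and 5.12 FPKM (log2 change 0.51, adjusted p = 0.0154). Mcm8, a helicase of recombination repair that is not part of the replicative ring, lay between 0.803 and 0.934 FPKM in the controls and rose to 1.57, 1.63 and 1.35 FPKM (log2 change 0.53, adjusted p = 0.0152). In all 4 of these genes every hypoxia library was above every control, hypoxia 4 and 5 included. Hypoxia 1 to 3 had that order in 9.73% of all tested genes, and the 4 genes were named for their small p. Without hypoxia 1 the adjusted p was 0.0510 for Rpa2, 0.0670 for Tipin and 0.0635 for Mcm8.

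Among 65 further mitosis genes 26 were tested, 0 rose and 1 fell, where 4.53% of all tested genes rose and 7.75% fell. An unadjusted p under 0.05 was reached by 4 (15.4%, against 28.4% of all tested genes), and the median log2 change was 0.07. Kif20b, a motor protein of late cytokinesis, was the 1 that fell. It held 3.55, 4.39, 4.69, 3.35 and 3.81 FPKM in the controls, and 1.23, 1.58 and 0.545 FPKM in hypoxia 1 to 3 (log2 change -1.51, SE 0.209, adjusted p = 0.00374). Hypoxia 4 and 5 were also under all controls, at 0.454 and 1.73 FPKM.

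Of 7 CDK inhibitors 6 were tested, 1 rose and 0 fell, where 4.53% of all tested genes rose and 7.75% fell. The riser was Cdkn1c (p57), which spanned 7.39 to 10.05 FPKM in the controls and rose to 11.7, 11.6 and 11.9 FPKM (log2 change 0.49, SE 0.0928, adjusted p = 0.0126). Cdkn1a (p21), the p53-induced inhibitor, was named after its values were seen. It held 2.81, 2.90, 2.66, 5.22 and 3.27 FPKM in the controls and 1.35, 1.67 and 2.43 FPKM in hypoxia 1 to 3, all under the controls, with a log2 change of -0.73 (adjusted p = 0.0584, and 0.0446 to 0.195 on leaving out 1 library).

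Of 17 genes of the RB and E2F families 15 were tested, 0 rose and 1 fell, where 4.53% of all tested genes rose and 7.75% fell. E2f2 spanned 1.28 to 1.60 FPKM in the controls and fell to 0.818, 0.834 and 0.406 FPKM in hypoxia 1 to 3 (log2 change -0.75, SE 0.150, adjusted p = 0.0154). Hypoxia 4 was as low, at 0.381 FPKM, but hypoxia 5 reached 11.05 FPKM, and over all 10 libraries the call was lost (log2 change -0.17, adjusted p = 0.870). Of 19 genes that p53 induces in growth arrest 18 were tested, 0 rose and 1 fell, beside the same shares of all tested genes. An unadjusted p under 0.05 was reached by 4 (22.2%, against 28.4% of all tested genes). The log2 change was negative in 14 of the 18, with a median of -0.16, where the median over all tested genes was -0.00046. The 19 genes summed to 183.9 to 196.3 FPKM in hypoxia 1 to 3 and to 216.5 to 238.5 FPKM in the controls. Aen, a nuclease, spanned 3.37 to 4.28 FPKM in the controls and fell to 1.94, 2.45 and 1.88 FPKM (log2 change -0.73, SE 0.104, adjusted p = 0.00412).

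Hypoxia 5 differed from all other libraries in these genes. Its level was at least 2 times the mean of the 8 libraries in 28 of the 34 genes (82.4%), against 13.6% of the 19706 genes at or above 0.1 FPKM in the 8 libraries. The median ratio was 5.82. Hypoxia 5 was the highest of the 10 libraries in 33 of the 34 genes, all but Ccnd1. The share of all genes in which it was the highest of the 10 was not counted. As a single library hypoxia 5 gives no test. The earlier results that led to its being set apart are of the same data, so these ratios are a description.

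The ratio differed by role. The same gain in FPKM gives a larger ratio where the mean of the 8 libraries was low. That mean was 0.144 FPKM for Cdc6 and 18.3 FPKM for Cdk4. Cdk6 and Mcm3 both had a mean of 1.88 FPKM, with ratios of 1.47 and 7.47. The mitotic genes had a median ratio of 12.0 and all 10 reached 2 times the mean, against 13.6% of all genes at or above 0.1 FPKM. Mki67 stood at 20.8 FPKM, 24.2 times the mean of the 8 libraries, and rested on 3809 reads against 107 to 254 in each of the others compared. Top2a was at 12.3 FPKM (17.3 times), Birc5 at 6.82 FPKM (15.4 times) and Plk1 at 6.09 FPKM (14.6 times). Bub1, nearly silent elsewhere, reached 2.17 FPKM (19.8 times, 172 reads). Cdk1 was at 4.41 FPKM, Aurka at 4.92, Aurkb at 3.0, Bub1b at 4.52 and Cdc20 at 7.93 FPKM, ratios between 5.41 and 9.43.

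All 5 A, B and E cyclins reached 2 times the mean, with a median ratio of 16.7. Ccne1 had the highest ratio among them, at 5.52 FPKM (24.3 times, 268 reads against 5 to 16), and Ccnb1 was at 4.64 FPKM (19.5 times). Ccnb2 was at 13.6 FPKM, Ccna2 at 11.2 FPKM and Ccne2 at 3.23 FPKM, so the E2 cyclin was the least raised of the 5, at 4.44 times. All 8 licensing and helicase genes passed 2 times the mean, with a median ratio of 4.15. Cdc6 had the highest ratio of the 34 genes, 25.7, at 3.70 FPKM and 353 reads. Its partner Cdt1 was at 9.73 FPKM (3.99 times), and the helicase subunits ran from 2.63 times (Mcm6, 17.9 FPKM) to 7.47 times (Mcm3, 14.1 FPKM).

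Of the clamp, nucleotide and E2f1 group 4 of 5 passed, with a median ratio of 2.54. Pcna reached 45.2 FPKM, Rrm2 21.4 FPKM (7.79 times), Rrm1 8.08 FPKM (4.38 times) and E2f1 3.29 FPKM (2.39 times), while Tyms stood at 1.62 times. The D cyclins and G1 kinases stayed nearest the other libraries, with a median ratio of 1.38. Ccnd2 alone of these 6 passed 2 times the mean, at 8.42 FPKM (4.03 times). Cdk2 was at 1.59 times, Cdk6 at 1.47, Cdk4 at 1.30 and Ccnd3 at 1.22. Ccnd1, at 31.6 FPKM, was at 0.811 times the mean and within the range of the controls. Among the further genes at or above 0.1 FPKM, 52 of 59 mitosis genes and 31 of 49 replication genes were at 2 times the mean or more, against 1 of 6 CDK inhibitors, 2 of 15 genes of the RB and E2F families and 3 of 19 p53-induced genes. The share over all genes at or above 0.1 FPKM was 13.6%.

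**Figure D4:**
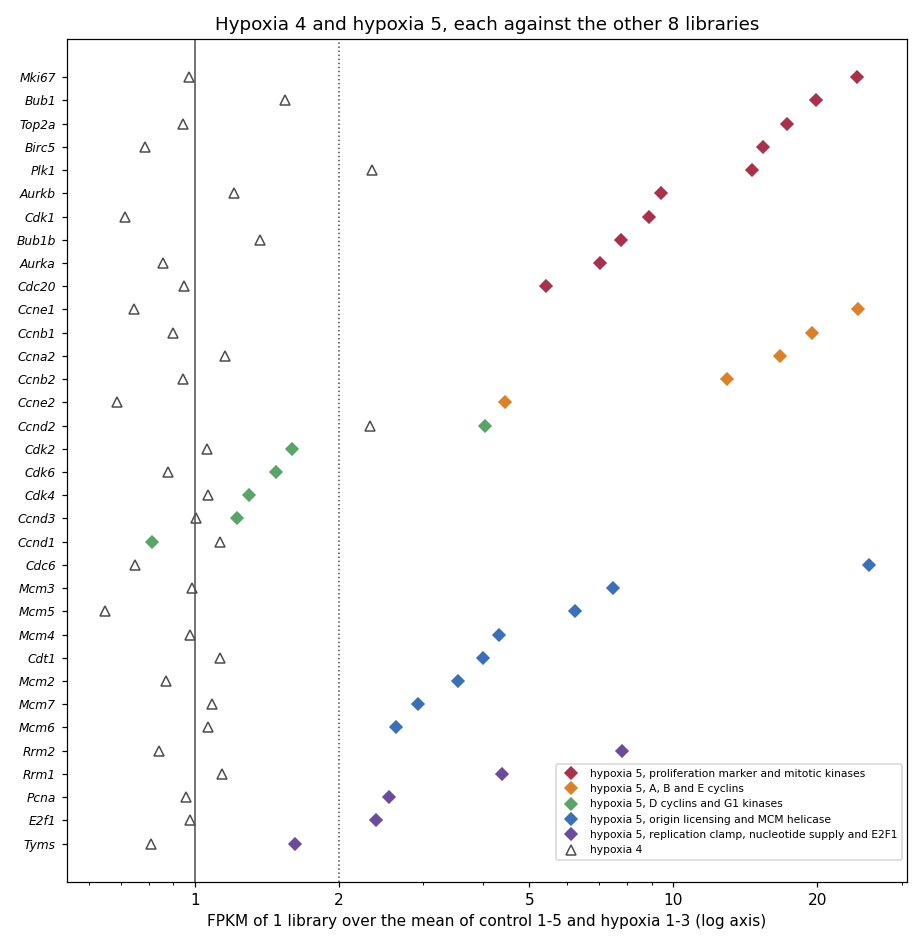
Ratio of hypoxia 4 and of hypoxia 5 to the mean of the 8 other libraries (log axis) for each of the 34 genes, ordered by role. Hypoxia 5 reaches 25.7 in Cdc6 and 24.3 in Ccne1 and lies between 1.30 and 1.59 for Cdk2, Cdk4 and Cdk6, whereas hypoxia 4 passes 2 in Plk1 and Ccnd2 alone.

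Of the promoter stretches printed above, that of Cdk1 holds an E2F match, CCAAT boxes in reverse (ATTGG) and TTTGAA, that of Mki67 a CCAAT box and TTTGAA, and that of Mcm6 E2F matches and reversed CCAAT boxes. Hypoxia 5 was at 8.88, 24.2 and 2.63 times the mean of the 8 libraries in these genes, in that order. The Cdk4 stretch holds none of the letters, and its ratio was 1.30. The letters did not track the ratio in every gene, since the windows of Birc5 and Ccne1 held none and their ratios were 15.4 and 24.3. Among the G1 genes, the Cdk2 window held an E2F match and a CCAAT box at a ratio of 1.59. A window of Ccnd3 held a CCAAT box at a ratio of 1.22. A match is a description of the sequence and not a site shown to be bound.

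Markers of several blood lineages were high in the same library. The 10 B cell markers summed to 454.8 FPKM in hypoxia 5 against 1.61 to 3.28 FPKM in the 8 libraries, each of the 10 being at least 10 times its highest value there, and Cd79b reached 143 FPKM. The 6 germinal centre B cell markers summed to 9.81 FPKM, within the 2.64 to 14.4 FPKM of the 8 libraries. Of these 6, 4 were highest in hypoxia 5. The 7 plasma cell markers summed to 191.0 against 43.9 to 74.3 FPKM, and 5 of the 7 were at 2 times the mean or more. The 11 T and NK cell markers summed to 130.6 against 2.0 to 5.53 FPKM, the 9 macrophage and monocyte markers to 319.2 against 45.3 to 64.5 FPKM, and the 9 neutrophil markers to 338.5 against 0.534 to 36.3 FPKM. Erythroid markers (11 of 12 in the table) summed to 6762 against 129.5 to 642.6 FPKM. Precursor genes at 0 in the 8 libraries were present, with Elane at 7.97, Mpo at 2.92 and Gata1 at 6.68 FPKM. Pancreas enzymes were also present, among them Ctrb1 at 15.4 FPKM and Prss2 at 6.53 FPKM, the latter at 0 in the 8 libraries. The 8 adrenal cortex markers summed to 14.2 FPKM, against 0.920 to 1.68 FPKM in the 8 libraries and 1067 FPKM in hypoxia 4. Proximal tubule markers summed to 14412 FPKM, under 7 of the 8 libraries and above hypoxia 3 (12135 FPKM), and each of the 10 stood at 0.290 to 0.803 times its mean over the 8 (median 0.538). The part of these cells in the raised cell cycle genes was not tested.

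Hypoxia 4 held other markers and few raised cell cycle genes. Its 8 adrenal cortex markers summed to 1067 FPKM against 0.920 to 1.68 FPKM in the 8 libraries, and its 8 fat cell markers to 676.3 FPKM against 69.8 to 192.1 FPKM. B cell markers (3.18 FPKM) and neutrophil markers (17.1 FPKM) were within the range of the 8 libraries. T and NK cell markers (8.56 FPKM), macrophage markers (86.1 FPKM) and erythroid markers (700.5 FPKM) were above it. Only Plk1 (0.974 FPKM, 2.34 times the mean) and Ccnd2 (4.85 FPKM, 2.32 times) of the 34 genes reached 2 times the mean, where 6.26% of all genes at or above 0.1 FPKM did, and the median ratio was 0.972. Mki67 was at 0.835 FPKM and Ccnd1 at 43.9 FPKM in this library, the latter above all controls.

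**Figure D5:**
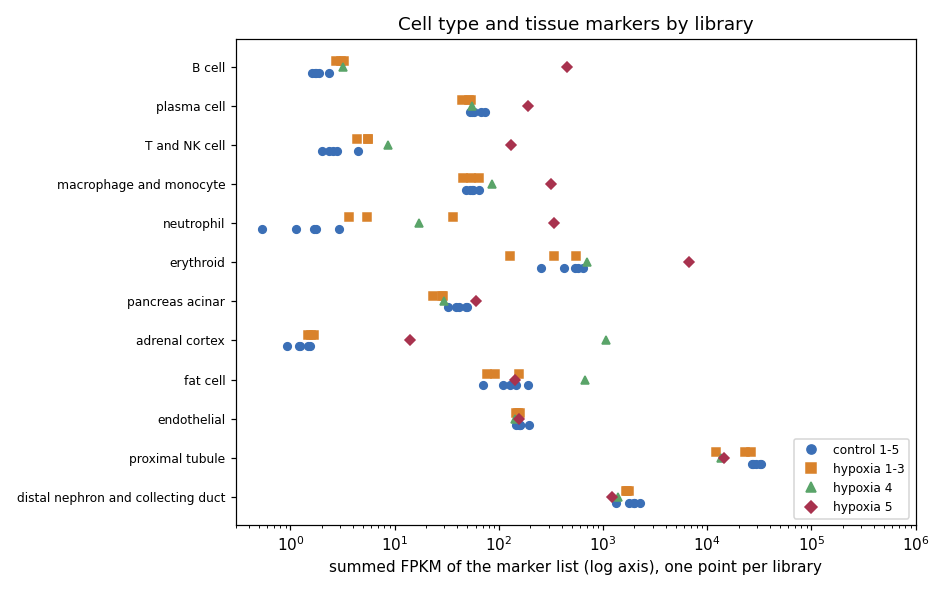
Summed FPKM of the marker lists (log axis) in the controls, hypoxia 1 to 3, hypoxia 4 and hypoxia 5. The lists of germinal centre B cells and of fibroblasts and pericytes are not drawn. Hypoxia 5 lies far above the other libraries in B cell (454.8 FPKM), T and NK cell, neutrophil and erythroid markers, and hypoxia 4 in adrenal cortex markers (1067 FPKM).

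When the hypoxia group was taken as labelled, with all 5 libraries, 32 of the 34 genes reached the level tested, 6 more than before, through hypoxia 5. By limma 0 of the 32 passed in either direction, where 3.66% of all tested genes passed upward and 7.79% downward. An unadjusted p under 0.05 was reached by 4 of the 32, against 4451 of all 15264 tested genes. The median log2 change was 0.53 against 0.012 over all tested genes. For Mki67 the hypoxia mean was 4.94 ± 8.85 FPKM (SD, n = 5), and the log2 change of 0.99 (SE 0.686) had an adjusted p of 0.356. Ccnd1 was no longer called, with a log2 change of 0.54 and an adjusted p of 0.0758. Leaving out hypoxia 5 alone gave 2 calls, Ccnd1 and Cdt1, and leaving out hypoxia 1 gave 1, Cdk4.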

How the data were processed

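Expression of 55952 genes in 10 libraries came as FPKM in 1 table from the authors, with names, coordinates and lengths in bases (an other unit). The submitters' processing notes give HISAT2 2.0.5 for alignment and list hg38, a human build. Identifiers were nevertheless of mouse genes. A GRCm38 annotation (GENCODE) held 55141 of them, 99.4% at identical coordinates, the 34 genes included. How reads were counted, whether strand was used and which annotation served is not given in the sources used here.

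Reads were recovered from FPKM and length, since 100% of the positive values of low to moderate read count came out whole (tolerance 0.05). The largest counts, those of Ccnd1 among them, were outside that check. The median ratio of every library to the geometric mean was the same (1.00083, over 17756 genes), so the deposited values were already scaled alike and were used as they stand. A gene of 1 kb rested on 3 reads at 0.165 to 0.183 FPKM, which covers counting error only.

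A gene entered the fit at a mean of 0.5 FPKM or more over the libraries compared. The values log2(FPKM + 0.5) were fitted by limma 3.58.1 (R 4.3.3; eBayes with trend and robust, group only, two-sided, hypoxia minus control). Adjustment after Benjamini-Hochberg covered all genes tested, and the threshold was 0.05. A fold change on this scale understates the change of low genes. The script was tested on simulated data. Ratios of hypoxia 4 and 5 use FPKM without a pseudocount and a limit of 2. No pair of libraries agreed within sampling noise (lowest chi-square per degree of freedom 9.62). Plots were made in Python 3.11.15 (matplotlib 3.10.9).

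The members and lists were chosen with earlier results of these data known. Named are the 34 genes, from each further list the called genes of smallest p (at most 4), and up to 3 markers per list with the highest FPKM. Cdkn1a and markers at 0 in the 8 libraries are outside this rule and were named after their values were seen. Alternatives covered scaling, pseudocount, filter, error model, voom on reads, a rank-sum test, a replicate block and the omission of each library.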

Additional observations from a re-analysis of the deposited data

Results flagged for a closer look

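In 31 of 68 groups of 5 libraries (34 genes, control and hypoxia), 1 library lay farther from the nearest other than Dixon's 95% limit of 0.71 of the whole range allows, with gaps of 0.725 to 0.972. That limit flags about 1 in 20 groups where the groups are independent. These groups share their libraries, and hypoxia 5 was set apart with earlier results of these data known. The count of flags is therefore a description. In 28 of the 31 flagged groups the library was hypoxia 5, as the highest.

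For the mitotic genes, hypoxia 5 stood out in Mki67 at 20.8 FPKM, Top2a at 12.3, Cdk1 at 4.41, Plk1 at 6.09, Aurka at 4.92, Aurkb at 3.0, Birc5 at 6.82, Bub1 at 2.17, Bub1b at 4.52 and Cdc20 at 7.93 FPKM. Among cyclins and their kinases it did so in Ccna2 at 11.2, Ccnb1 at 4.64, Ccnb2 at 13.6, Ccne1 at 5.52, Ccne2 at 3.23 and Cdk6 at 2.77 FPKM. In the replication genes the values were 3.70 FPKM for Cdc6, 9.73 for Cdt1, 8.09 for Mcm2, 14.1 for Mcm3, 14.6 for Mcm4, 11.4 for Mcm5, 17.9 for Mcm6, 14.6 for Mcm7, 45.2 for Pcna, 8.08 for Rrm1, 21.4 for Rrm2 and 3.29 FPKM for E2f1.

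A control library stood apart in 3 genes. Cdk1 was lowest in control 4 at 0.301 FPKM, Mcm4 lowest in control 1 at 2.38 FPKM and Mcm7 highest in control 2 at 5.46 FPKM.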

How the results depend on the processing

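Over all genes, 1808 calls between hypoxia 1 to 3 and the controls became 1037 without a filter on low values and 0 with an exact rank-sum test, which called 3168 genes at an unadjusted p under 0.05. Leaving out single libraries gave 761 (without hypoxia 1) to 2076 calls (without control 4), and 989, 1141, 1170 and 808 without control 1, 2 and 3 and hypoxia 3. With all 10 libraries the 1748 calls ranged from 824 (without control 1) to 2724 (without hypoxia 5), with 864, 947, 1016 and 1053 without control 2, 3 and 5 and hypoxia 4. The 1 call among the 34 genes became 0 with all 10 libraries, without a filter and with the rank-sum test (2 at an unadjusted p under 0.05), 3 after rescaling without the 50 most abundant genes (Ccnd1, Cdt1 and Mcm7), 3 with voom (Ccnd1, Cdt1 and Rrm1), and 0 to 3 on leaving out 1 library. With all 10 libraries the 0 calls became 0 to 2 on leaving out 1 library. The adjusted p of Ccnd1 ranged from 0.00787 to 0.166 over its alternatives. The causes of these shifts were not tested.

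The replicate block lowered the calls from 1808 to 881 (746 shared in direction) and from 1748 to 999, and left 1 of the 34 genes called, Ccnd1. It took the adjusted p of Rpa2, Mcm8, Tipin, Cdkn1c and E2f2 above 0.05, to 0.0812, 0.0882, 0.0695, 0.0659 and 0.0636. Samples with the same number correlated at 0.0174, 0.133 and -0.0118 in their deviations. Those of unlike number correlated at -0.138 to 0.111. With 3 pairs of the same number, these values cannot decide whether the number marks a pairing.

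Uncalled changes turned sign for Bub1b (0.46) and Ccna2 (0.60) with all 10 libraries. On leaving out 1 library the log2 change ranged from -0.035 to 0.20 for Top2a, -0.12 to 0.023 for Bub1b, -0.17 to 0.18 for Cdc20, -0.10 to 0.45 for Ccnb2 and -0.079 to 0.19 for Ccne2. Of all alternatives for single genes, 652 kept direction and side of the threshold, 8 passed it, 25 lost it and 9 reversed. Depth limits Bub1, Cdc6, Ccne1, Plk1 and Aurkb, which rested on 5 to 22 reads per library in the 8 libraries.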
